A study of Mus musculus with 21 samples.

Results

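Midbrain RNA of mice given the neurotoxin MPTP was compared with that of vehicle-treated mice in an experiment designed for delayed irisin treatment, in which no irisin was given to either group. The 6 mice of the comparison, 3 in each group, were chosen by their labels from the 21 mice of the series, and all genes with enough counts (21922 of 55385 listed) were tested. All mice were 6-week-old C57BL/6 males. MPTP mice received MPTP at 30 mg/kg daily for 5 days and then water as vehicle for 5 days, and control mice received water for 10 days, all by intraperitoneal injection. The same experiment held 3 mice given vehicle for 5 days and irisin, the circulating fragment of the membrane protein FNDC5, at 200 μg/kg daily for 5 days (irisin-alone mice), and 3 mice given MPTP and then irisin in the same amounts (MPTP and irisin mice). A separate pre-treatment experiment had its own 3 control mice (10 days of vehicle) and 3 MPTP mice (5 days of vehicle and 5 days of MPTP). The tissue was dissected by hand from perfused brains, so that the share of nigral tissue in a sample could vary. Nothing in the labels names separate litters, cages or sample batches.

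MPTP is converted in astrocytes by monoamine oxidase B into MPP+, which enters dopaminergic neurons through the dopamine transporter and blocks complex I of the mitochondrial respiratory chain. Loss of dopaminergic terminals in the striatum and of cell bodies in the substantia nigra follows, which is why the compound is used to model Parkinson's disease. In bulk tissue a lower level of a marker cannot separate fewer cells of a type from less RNA per cell.

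Total counts were 48843585 to 55402572 in the control mice and 57845362 to 77203445 in the MPTP mice, so the deeper libraries were those of the MPTP group, without overlap. Levels are given as CPM, counts scaled to a common library total. All 23 listed genes of dopaminergic neurons passed the filter on low counts. So did all 7 listed striatal genes and all 8 of choroid plexus and ependyma, so that passing the filter does not identify the tissue. Markers of neighbouring tissue varied between mice of the same group. Ttr, the transthyretin gene of the choroid plexus, was at 1413, 1265 and 211 CPM in the control mice and 24.1, 73.6 and 1443 CPM in the MPTP mice, and its part in the other results was not tested.

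The control mice stood apart from the other mice of the experiment. In 712 of the 21922 tested genes (3.25%) all 3 control mice lay outside the range of the other 9 mice. The same was seen in 229 genes (1.04%) for the MPTP mice, in 215 (0.981%) for the irisin-alone mice and in 171 (0.78%) for the MPTP and irisin mice. Wdfy1, an endosomal adaptor protein, shows the pattern. It was at 79.6, 74.2 and 73.7 CPM in the control mice and 23.2, 21.6 and 19.2 CPM in the MPTP mice, but also at 24.7, 21.4 and 22.3 CPM in the irisin-alone mice, which had received no MPTP, and at 21.4, 19.9 and 22.1 CPM in the MPTP and irisin mice. For such genes the effect of MPTP and a difference of the control mice from all other mice cannot be told apart. The labels give the strain as C57BL/6 with no substrain. As background, Wdfy1, Crb1, Gabra2 and Nnt are known to carry variants that differ between C57BL/6 substrains. Nnt, a mitochondrial transhydrogenase, was at 4.47 CPM in 1 irisin-alone mouse and 6.08 CPM in 1 MPTP and irisin mouse, against 39.8 to 50.5 CPM in the other 10 mice, and its low level did not follow a treatment group. The part of substrain in any result was not tested.

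Between MPTP and control mice 29 genes (0.132% of those tested) had an adjusted p under 0.05 in the quasi-likelihood test of edgeR, adjusted over all tested genes after Benjamini and Hochberg (the edgeR adjusted p). Of these, 20 (0.0912%) rose and 9 (0.0411%) fell. An unadjusted p under 0.05 was found in 947 genes higher (4.32%) and 879 genes lower (4.01%) in MPTP mice, and the median log2 fold change of all tested genes was −0.0013. The 3 mice of each group did not overlap in any of the 29 genes. This is no added support, as the genes were called on these same mice. Over all tested genes, 8.24% were without overlap and higher and 7.94% without overlap and lower in MPTP mice. In 25 of the 29 genes all 9 other mice of the experiment, the irisin-alone mice included, lay outside the control range on the side of the MPTP mice. These were all 20 genes that rose and 5 of the 9 that fell. The other 4, Larp1, Btg2, Apold1 and Zfp36, were also the 4 of the 29 that passed the threshold when the MPTP mice were compared with the irisin-alone mice in the same fit, a comparison added after the data were seen. That comparison used the same 3 MPTP mice. The 4 genes had also been set apart by where the irisin-alone mice lay, so passing it is no added support. Of the 29 calls, 17 were lost when some single mouse of the comparison was left out. Replicates were separate mice by their labels, and every pair within a group differed by more than counting error.

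**Figure D1:**
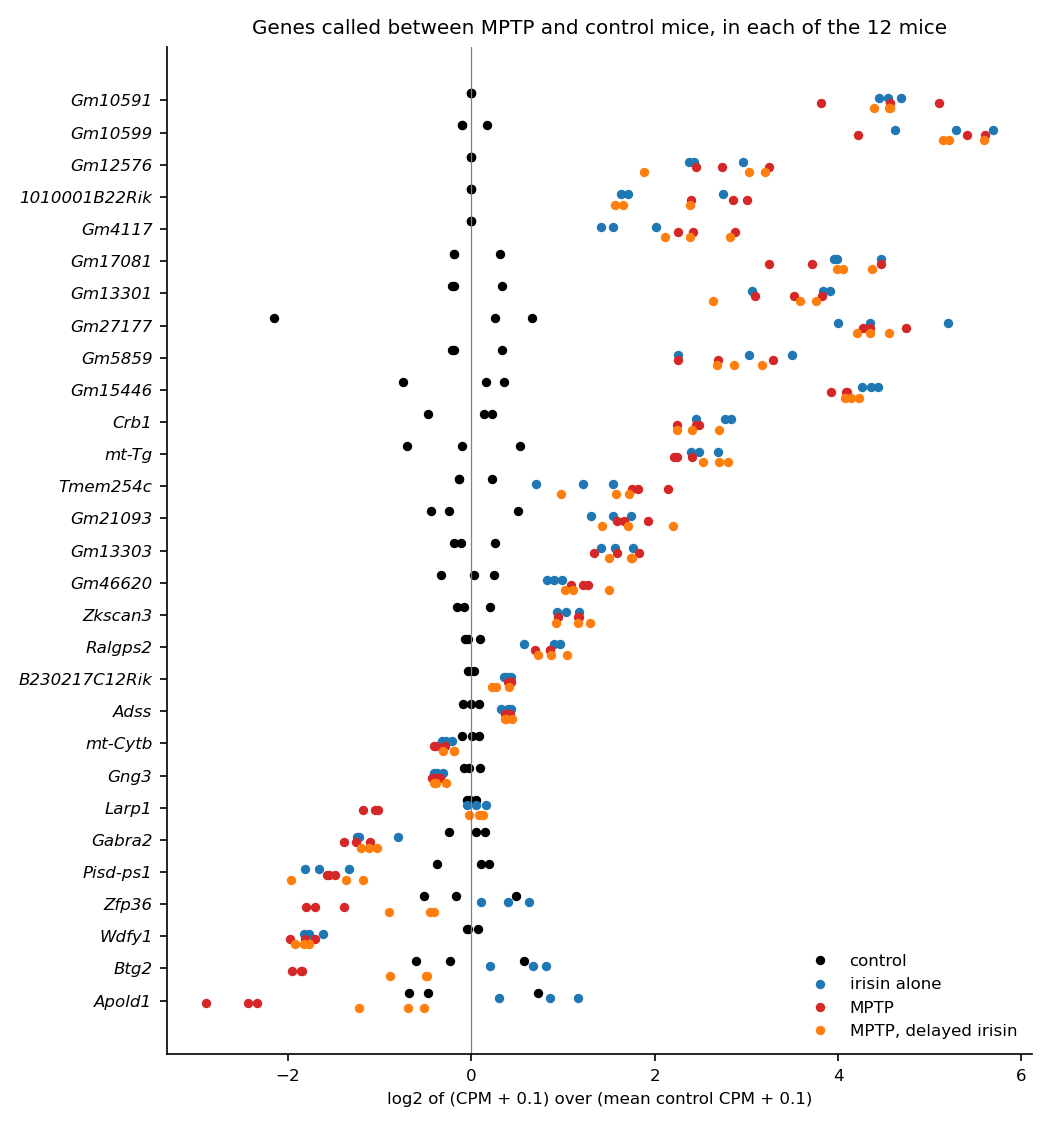
The 29 called genes in each of the 12 mice of the experiment, drawn as the log2 ratio of CPM (with 0.1 added) to the mean of the control mice. In 25 genes the 9 other mice lie together away from the control mice, and Larp1, Zfp36, Btg2 and Apold1 are the exceptions.

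Among the 25 genes in which the control mice stood alone, several encode neuronal or membrane proteins. Gabra2, a GABA-A receptor subunit (ENSMUSG00000000560; chromosome 5, 70957597 to 71095849 of GRCm38), was at 54.9, 67.6 and 72.2 CPM in control and 24.7, 30.2 and 27.1 CPM in MPTP mice (log2 fold change −1.25, standard error 0.14, edgeR adjusted p = 0.00504). The irisin-alone mice were at 37.3, 27.8 and 27.4 CPM, within or near the range of the MPTP mice. Gng3, a neuronal G protein gamma subunit, was at 288, 255 and 265 CPM in control and 213, 200.3 and 208 CPM in MPTP mice (log2 fold change −0.38, standard error 0.06, edgeR adjusted p = 0.0361). Wdfy1 itself had the smallest p of all genes (log2 fold change −1.83, standard error 0.09, edgeR adjusted p = 1.05e-05). Crb1, a cell polarity protein of retina and brain, was at 0.642, 0.689 and 0.385 CPM in control mice and 3.58, 3.66 and 3.1 CPM in MPTP mice (log2 fold change 2.59, standard error 0.24, edgeR adjusted p = 0.00136). Zkscan3, a zinc finger repressor of autophagy genes, was at 37.6, 45.7 and 35.8 CPM in control and 89.8, 89.2 and 76.6 CPM in MPTP mice (log2 fold change 1.1, standard error 0.12, edgeR adjusted p = 0.00443). Adss, an enzyme of AMP synthesis, was at 75.2, 79.9 and 84.7 CPM and 104, 103 and 107 CPM (log2 fold change 0.39, standard error 0.06, edgeR adjusted p = 0.0262). Pisd-ps1, a pseudogene, was at 60.6, 43.3 and 64.3 CPM in control mice and at a mean of 19.3 CPM in MPTP mice (SD 0.622, n = 3; log2 fold change −1.54, standard error 0.21, edgeR adjusted p = 0.0176). In each of these genes the control and MPTP mice were separate, while the irisin-alone mice lay nearer to the MPTP mice. Tmem254c, Gm27177, Gm46620, Ralgps2 and B230217C12Rik also rose, with log2 fold changes of 1.93, 4.57, 1.21, 0.81 and 0.42. The calls of Adss, Gng3, Pisd-ps1, Ralgps2 and B230217C12Rik were each lost when any of the 3 MPTP mice was left out, and also without some control mice. Gm46620 was lost without the first control mouse or without the first or the second MPTP mouse, and Tmem254c and Gm27177 without the third control mouse.

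Many of the genes that rose were predicted genes or members of near-identical families, whose counts are uncertain because reads may be shared between copies. Of the 29 genes, 12 carried Gm names and 7 lay on chromosome 4, all 7 among the 20 that rose, where 5.96% of the tested genes lie. Gm13301, Gm13303, Gm21093, Gm5859, Gm17081, Gm10599 and Gm10591 lay between 42025429 and 42613253 of that chromosome. Gm10591 had no count in the control mice and was at 1.31, 3.33 and 2.27 CPM in the MPTP mice, at least 126-fold higher when 3 counts over the control group are taken as the floor. The other 3 genes without a count in the control mice were Gm4117, Gm12576 and 1010001B22Rik, at least 25.1-fold, 32.1-fold and 31-fold higher by the same floor. These bounds cover counting error only, and genes without a count in the control mice passed the filter through the other groups. The call of 1010001B22Rik was lost when any single mouse of the comparison was left out. Gm4117 was lost without any of the MPTP mice or the third control mouse. Gm12576 was lost without the first or the third MPTP mouse or the third control mouse. Gm15446, a zinc finger gene, was at 0.642, 1.49 and 1.28 CPM in control and 21.1, 21 and 18.7 CPM in MPTP mice (log2 fold change 4.15, standard error 0.23, edgeR adjusted p = 2.27e-05). The irisin-alone mice were at 26.8, 25.4 and 23.8 CPM and the control mice of the pre-treatment experiment at 36.6, 45.8 and 41.6 CPM, so that the control mice of the delayed experiment held the low values.

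Larp1, an RNA-binding protein that regulates translation of ribosomal protein messages (ENSMUSG00000037331; chromosome 11, 58009064 to 58062034), fell in MPTP mice alone. It was at 155, 153 and 163 CPM in control mice, 69.5, 76.1 and 77.6 CPM in MPTP mice, 163, 176 and 152 CPM in irisin-alone mice and 172, 167 and 154 CPM in MPTP and irisin mice (log2 fold change −1.08, standard error 0.07, edgeR adjusted p = 6.56e-05, MPTP minus control). The 3 MPTP mice sat on a lower level well apart from all 9 others. Against the irisin-alone mice, a contrast that used the same 3 MPTP mice, the log2 fold change was −1.14 (edgeR adjusted p = 1.13e-04). MPTP followed by irisin did not differ from irisin alone by the test (log2 fold change 0.01, edgeR adjusted p = 1.0), and the difference between both contrasts passed the threshold (edgeR adjusted p = 0.00198). In the pre-treatment experiment the order was not the same. Control mice were at 65.9, 60.0 and 45.4 CPM and MPTP mice at 72.7, 162 and 70.0 CPM, so that 1 MPTP mouse lay at the higher level and the control mice near the level of the MPTP mice of the delayed experiment.

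The other 3 genes that fell in MPTP mice while the irisin-alone mice did not lie on the MPTP side were Btg2, Apold1 and Zfp36. Btg2 and Apold1 were on the list of immediate early genes, and Zfp36 was not on it. Immediate early genes are switched on by neuronal activity, growth factors or stress without new protein synthesis, and include transcription factors (Fos, Jun, Egr1) and feedback regulators (Dusp1, Btg2). Such transcripts are short-lived. The windows printed here show the cAMP response element, the binding motif of CREB, a factor through which many of them are induced. It was spelled TGACGTCA and searched on both strands of the 300 bases around each start (250 before to 50 after, RefSeq promoters of GRCm38.p6), and the motif is in capitals.
Btg2 (chr1:134079303-134079332, minus strand): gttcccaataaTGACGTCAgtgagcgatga
Dusp1 (chr17:26508597-26508626, minus strand): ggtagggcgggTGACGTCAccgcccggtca
The motif began 166 bases before the start in Btg2 and 143 bases before it in Dusp1. Promoter windows, 23 in all, were found for 19 of 23 listed immediate early genes, and 2 windows (8.70%) held the motif, against 1.79% of all 32851 promoter windows. The dopaminergic genes had it in 2 of 28 windows (7.14%), those of Th and Slc18a2. Of the other motifs searched on both strands, CACGTG (E-box) was in 5 immediate early windows (21.7%, against 7.15% of all) and GAANNTTC (heat shock element) in 2 (8.70%, against 7.86%). TGANTCA (AP-1) and AAAGGTCA (NBRE) were in none, against 7.81% and 1.51% of all windows. Of the 6 called genes that fell and had a window, Btg2 held it, and the windows of Apold1 and Zfp36 did not.

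Btg2, an antiproliferative transcript regulator (ENSMUSG00000020423; chromosome 1, 134075170 to 134079120), was at 34.4, 26.5 and 60.1 CPM in control mice and 11.1, 11.2 and 10.4 CPM in MPTP mice (log2 fold change −1.89, standard error 0.27, edgeR adjusted p = 0.0236). Irisin-alone mice were at 46.7, 64.5 and 71 CPM and MPTP and irisin mice at 21.8, 28.6 and 28.9 CPM, so that the MPTP mice were lowest and the irisin-alone mice overlapped the control mice. Apold1, an endothelial gene induced by activity and ischaemia (ENSMUSG00000090698; chromosome 6, 134981718 to 134986836), was at 16.3, 14.2 and 37.5 CPM in control mice and 4.11, 4.43 and 2.97 CPM in MPTP mice (log2 fold change −2.56, standard error 0.38, edgeR adjusted p = 0.0308). Its MPTP level lay below that of every other mouse of the experiment. Zfp36 (tristetraprolin), which destabilizes AU-rich messages (ENSMUSG00000044786; chromosome 7, 28376784 to 28380253), was at 18.3, 14.3 and 28.8 CPM in control mice and 6.25, 5.82 and 7.76 CPM in MPTP mice (log2 fold change −1.63, standard error 0.25, edgeR adjusted p = 0.0361). The irisin-alone mice gave 22.1, 27.1 and 31.7 CPM. Against the irisin-alone mice Btg2, Apold1 and Zfp36 had log2 fold changes of −2.48, −3.38 and −2.03 (edgeR adjusted p = 0.0148, 0.0182 and 0.0243). This contrast used the same 3 MPTP mice and is no added support. Between MPTP and irisin mice and irisin-alone mice none of the 3 passed the threshold, with log2 fold changes of −1.2, −1.6 and −0.97 (edgeR adjusted p = 0.785, 0.865 and 1.0), and the difference between both contrasts was not called either (edgeR adjusted p = 0.908, 0.908 and 0.908). All 3 calls were lost when any of the 3 MPTP mice was left out. The edgeR adjusted p then lay between 0.101 and 0.127 for Btg2, 0.130 and 0.156 for Apold1, and 0.0866 and 0.215 for Zfp36. Zfp36 was also lost without the first or the third control mouse (edgeR adjusted p = 0.0873 and 0.0652). With only the MPTP and control mice in the fit the edgeR adjusted p was 0.167 for Btg2, 0.177 for Apold1 and 0.185 for Zfp36.

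**Figure D2:**
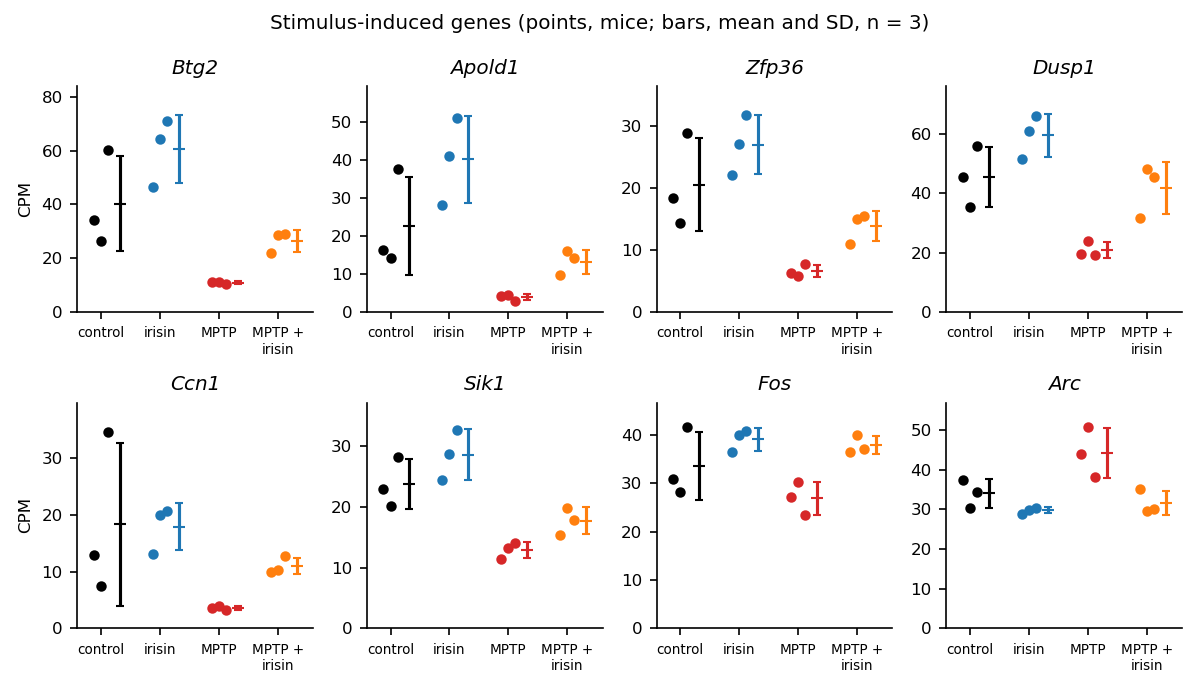
CPM of 8 stimulus-induced genes in the 12 mice of the delayed experiment, with mean and SD of each group (n = 3). Btg2, Apold1, Zfp36, Dusp1, Ccn1 and Sik1 are lowest in the MPTP mice, whereas Fos overlaps the control mice and Arc lies higher in the MPTP mice.

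Of the 23 listed immediate early genes, all tested, 2 (Btg2 and Apold1) fell past the threshold and none rose, with a median log2 fold change of −0.46 against −0.0013 for all tested genes. Without the third control mouse the median was −0.16. Of all tested genes 0.0411% were called and lower. An unadjusted p under 0.05 was found for 11 genes lower and 1 higher, against 4.01% and 4.32% of all tested genes. Dusp1, a phosphatase that switches off MAP kinases, was at 45.4, 35.3 and 55.8 CPM in control and 19.5, 24 and 19 CPM in MPTP mice (log2 fold change −1.13, standard error 0.19, edgeR adjusted p = 0.0708). With the same MPTP mice, it did pass against the irisin-alone mice (log2 fold change −1.51, edgeR adjusted p = 0.0285). Ccn1, a secreted matrix protein, was at 13, 7.48 and 34.7 CPM and 3.67, 3.99 and 3.23 CPM (log2 fold change −2.34, standard error 0.45, edgeR adjusted p = 0.127), with 1 control mouse far above the other two. Sik1, a kinase that limits CREB signalling and not on the list, was at 22.9, 20.1 and 28.3 CPM and 11.5, 13.2 and 14.1 CPM (log2 fold change −0.88, standard error 0.15, edgeR adjusted p = 0.081). Not every member was lower. Fos was at 30.9, 28.2 and 41.6 CPM and 27.1, 30.3 and 23.4 CPM (edgeR adjusted p = 0.573), with overlapping groups. Egr1 was at 58.5, 42.2 and 89.5 CPM and 48.1, 76 and 45.5 CPM (edgeR adjusted p = 0.923). Arc, which trims synaptic AMPA receptors, was at 37.4, 30.2 and 34.5 CPM and 44, 50.7 and 38.1 CPM, a log2 fold change of 0.38 with no call (edgeR adjusted p = 0.398).

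In the pre-treatment experiment the median log2 fold change of the immediate early genes between MPTP and control mice was 0.20, with 1 gene lower and 5 higher at an unadjusted p under 0.05, against 2.67% and 3.36% of tested genes. The difference between the experiments was not tested for the list. Apold1 was at 9.54, 11.9 and 12.3 CPM in the control and 36.3, 29.3 and 22.6 CPM in the MPTP mice of that experiment. Its MPTP contrast differed between the experiments by −3.94 on the log2 scale (edgeR adjusted p = 0.0246). For Btg2 and Zfp36 that difference was not called (edgeR adjusted p = 0.121 and 0.219). MPTP was the last treatment in the pre-treatment experiment and was followed by 5 days of vehicle in the delayed experiment, and the mice differed too, so that these cannot be told apart.

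Genes of dopaminergic neurons were lower in MPTP mice as a group of values, but none passed the threshold. All 23 genes were tested, with a median log2 fold change of −0.41, 22 of them below 0. An unadjusted p under 0.05 was found for 13 genes, all lower, against 4.01% of all tested genes. The mice did not overlap in 15, all lower, against 7.94% of all tested genes. Th, tyrosine hydroxylase, the rate-limiting enzyme of dopamine synthesis, was at 63.3, 59.2 and 50.9 CPM in control and 31, 31.5 and 46 CPM in MPTP mice (log2 fold change −0.68, standard error 0.14, edgeR adjusted p = 0.188). Slc6a3, the dopamine transporter that takes up MPP+, was at 62.9, 66.2 and 67.4 CPM and 15.3, 24.2 and 53.5 CPM (log2 fold change −1.08, standard error 0.37, edgeR adjusted p = 0.458). The MPTP mice differed among themselves in Slc6a3, and the third lay close to the control mice. That mouse also had the high Ttr level of 1443 CPM, against 24.1 and 73.6 CPM in the other MPTP mice, and the part of neighbouring tissue in its dopaminergic levels was not tested. Leaving out each MPTP mouse in turn gave Th an edgeR adjusted p between 0.0121 and 0.528. Th passed the threshold only without the third mouse. The log2 fold change then lay between −0.89 and −0.57 for Th and between −1.73 and −0.75 for Slc6a3.

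Among receptors, Chrna6, a nicotinic subunit of dopaminergic neurons, was at 14.3, 16 and 17.6 CPM in control and 6.02, 9.26 and 12.3 CPM in MPTP mice (log2 fold change −0.80, standard error 0.21, edgeR adjusted p = 0.323). Ret, the GDNF receptor kinase, was at 123, 118 and 131 CPM and 93.9, 84.2 and 104 CPM (log2 fold change −0.40, standard error 0.10, edgeR adjusted p = 0.265). Drd2, the dopamine autoreceptor, was at 34.4, 32.8 and 29.8 CPM and 23.4, 25.8 and 29 CPM (log2 fold change −0.31, standard error 0.10, edgeR adjusted p = 0.438). The groups were separate for all 3 receptors. Of the transcription factors that specify the neurons, Foxa1 was at 1.93, 2.45 and 2.81 CPM and 1.19, 0.701 and 1.08 CPM (log2 fold change −1.27, standard error 0.31, edgeR adjusted p = 0.277) and Nr4a2 at 15, 13.8 and 16.6 CPM and 10.1, 11.1 and 9.1 CPM (log2 fold change −0.58, standard error 0.18, edgeR adjusted p = 0.398). En1 was at 11.4, 8.84 and 10.9 CPM and 12.8, 8.3 and 8.77 CPM, with a log2 fold change of −0.06, and En2 had 0.06, the only member above 0. Ddc and Slc18a2, the decarboxylase and the vesicular transporter that serotonergic neurons also use, overlapped between the groups, with log2 fold changes of −0.41 and −0.40. Aldh1a1, an aldehyde dehydrogenase of ventral nigral neurons, was at 378, 386 and 400.2 CPM and 343, 307 and 346 CPM (log2 fold change −0.22, standard error 0.07, edgeR adjusted p = 0.413).

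**Figure D3:**
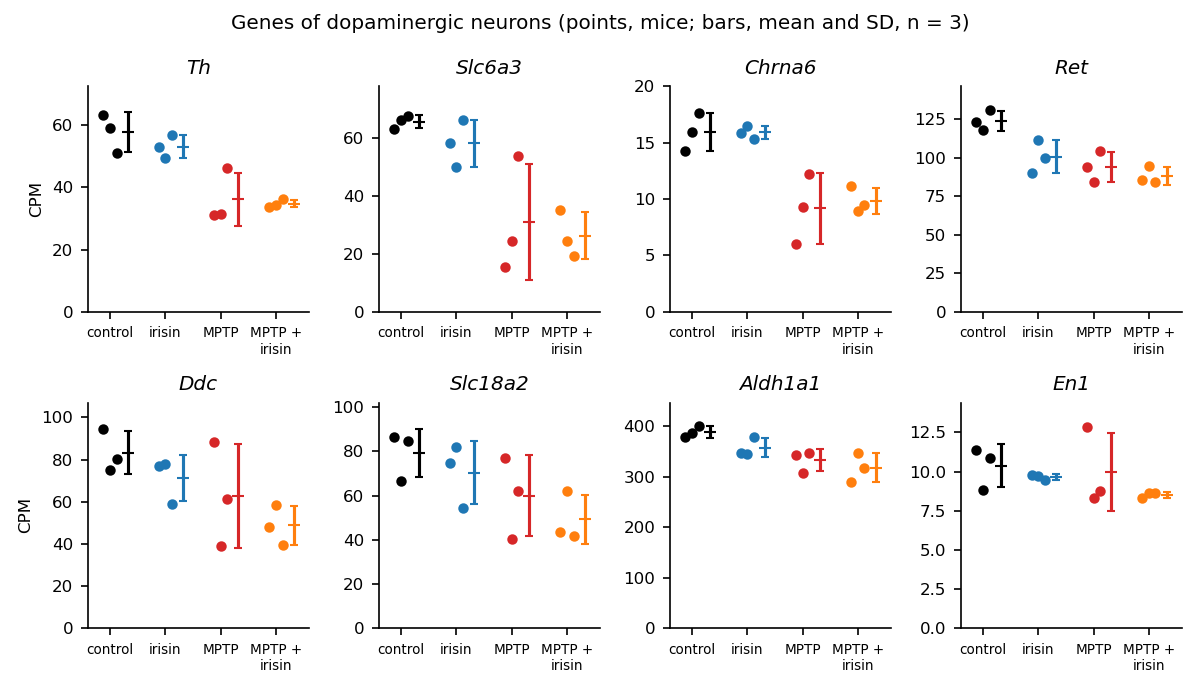
CPM of 8 genes of dopaminergic neurons in the 12 mice of the delayed experiment, with mean and SD of each group (n = 3). Th, Slc6a3, Chrna6 and Ret lie lower in the MPTP mice than in the control mice, and Ddc, Slc18a2 and En1 overlap.

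Other contrasts gave values for the same genes. MPTP followed by irisin was compared with irisin alone, in 6 other mice, and gave a median log2 fold change of −0.22, with 6 genes lower at an unadjusted p under 0.05, against 1.9% of all tested genes, and 7 without overlap and lower, against 4.28% of tested genes. Th was at 52.9, 49.4 and 56.7 CPM in irisin-alone mice and 33.8, 34.4 and 36.1 CPM in MPTP and irisin mice (log2 fold change −0.61, edgeR adjusted p = 0.883). Slc6a3 was at 58.2, 49.9 and 66.1 and 35.1, 24.5 and 19.2 CPM (log2 fold change −1.15, edgeR adjusted p = 1.0). The groups were separate for both genes. MPTP mice against irisin-alone mice gave a median of −0.14, with 6 genes without overlap and lower, against 6.36% of tested genes. That contrast used the same MPTP mice as the comparison with control mice, so its values are not independent of it. In the pre-treatment experiment the median was 0.07, and 1 gene, Slc6a3, was lower at an unadjusted p under 0.05, against 2.67% of tested genes.

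Transcripts of the mitochondrial genome, which encodes core subunits of the respiratory chain and the ATP synthase, were lower in MPTP mice. Of its 13 protein-coding genes, 1 (mt-Cytb) fell past the threshold and 10 were lower at an unadjusted p under 0.05. The shares of all tested genes were 0.0411% and 4.01%. The median log2 fold change of the 13 genes was −0.31. Mitochondrial genes took 7.65 to 7.80% of counts in MPTP mice and 8.48 to 9.50% in control mice. The irisin-alone mice, at 8.04 to 8.71%, and the MPTP and irisin mice, at 7.87 to 8.68%, overlapped the control range only at its lower end. mt-Cytb, the cytochrome b of complex III, was at 9155, 9923 and 10447 CPM in control mice, 7556, 7451 and 8079 CPM in MPTP mice and 8539.5, 8122 and 7901 CPM in irisin-alone mice (log2 fold change −0.35, standard error 0.06, edgeR adjusted p = 0.0467, MPTP minus control). The irisin-alone mice thus lay on the side of the MPTP mice. The mt-Cytb call was lost in 11 of 13 alternatives, among them median ratio scaling (edgeR adjusted p = 0.0604), each MPTP mouse left out (edgeR adjusted p = 0.0681 to 0.249) and the second or the third control mouse left out (edgeR adjusted p = 0.159 for both). mt-Nd6, a complex I subunit read from the other strand, was at 1583, 1758 and 2029 CPM and 1281, 1285 and 1134 CPM (log2 fold change −0.54, standard error 0.10, edgeR adjusted p = 0.0885). mt-Nd3, another complex I subunit, was at 592, 537 and 649.8 CPM and 614, 589 and 553 CPM, with a log2 fold change of −0.02. Against the irisin-alone mice the median over the 13 genes was −0.11. MPTP and irisin mice against irisin-alone mice gave 0.02. mt-Tg, a short mitochondrial transfer RNA gene, was at 0.331, 0.555 and 0.917 CPM in control and 3.16, 3.63 and 3.22 CPM in MPTP mice (log2 fold change 2.46, standard error 0.29, edgeR adjusted p = 0.00752), with the irisin-alone mice at 3.59, 4.43 and 3.81 CPM.

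**Figure D4:**
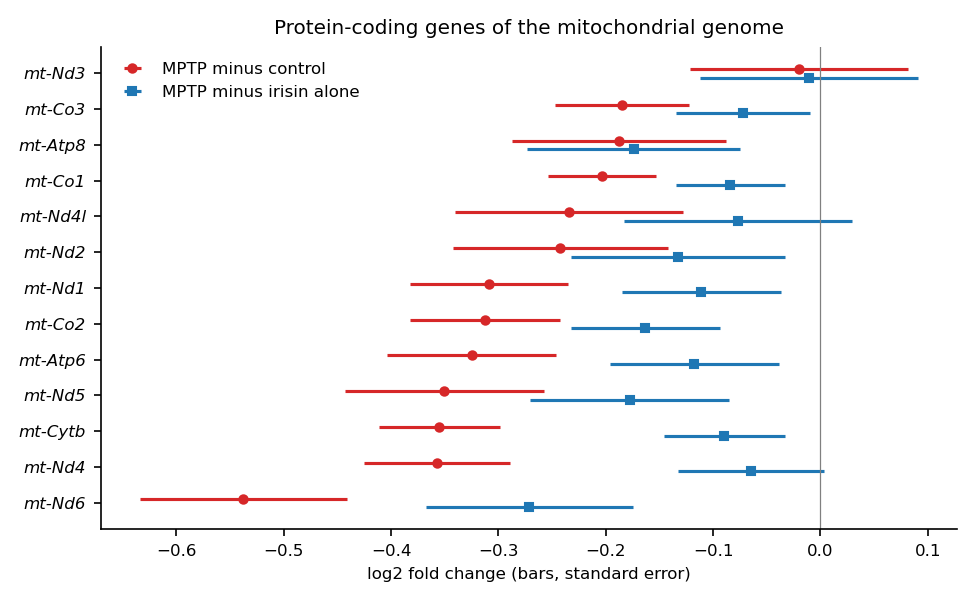
Log2 fold changes with standard errors of the 13 protein-coding genes of the mitochondrial genome, for MPTP minus control mice and for MPTP minus irisin-alone mice. Both sets lie below 0, and the differences from the irisin-alone mice are the smaller ones in all 13 genes.

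The nuclear genes of complex I, the site that MPP+ blocks, gave no call. Of 36 subunits tested, 2 (5.56%) were lower and 1 higher at an unadjusted p under 0.05. The lower share was near the 4.01% of all tested genes, of which 4.32% were higher. The groups did not overlap in 8 subunits that were lower and 1 that was higher, against 7.94% and 8.24% of all tested genes. The log2 fold change was below 0 in 28 of the 36. The median log2 fold change of the subunits was −0.09. Ndufa8 was at 135, 120.4 and 114 CPM in control and 101, 112 and 104 CPM in MPTP mice (log2 fold change −0.22, edgeR adjusted p = 0.481), and Ndufa9 at 127, 125 and 111 and 136, 135 and 131 CPM (log2 fold change 0.15, edgeR adjusted p = 0.551). Of the 16 genes of mitochondrial biogenesis and dynamics, none was called and the median was −0.04. At an unadjusted p under 0.05, 3 of them were higher and 1 lower, against 4.32% and 4.01% of all tested genes. Without overlap, 4 were higher and 1 lower, against 8.24% and 7.94% of all tested genes. Nrf1, a transcription factor of nuclear respiratory genes, was at 9.0, 7.68 and 9.06 CPM in control and 19.2, 14.2 and 10.8 CPM in MPTP mice (log2 fold change 0.78, standard error 0.18, edgeR adjusted p = 0.254), so that the groups did not overlap. Mfn2, a mitofusin, was at 216, 207 and 209 and 239, 248 and 243 CPM (log2 fold change 0.21, standard error 0.05, edgeR adjusted p = 0.262). Ppargc1a, the coactivator of mitochondrial biogenesis, was at 54.3, 56.4 and 59 and 52.3, 55.2 and 56.9 CPM (log2 fold change −0.05, standard error 0.07, edgeR adjusted p = 0.915), and Tfam, which packages mitochondrial DNA, at 39.4, 43.4 and 44.8 and 39.9, 39.7 and 39.7 CPM (log2 fold change −0.10, standard error 0.07, edgeR adjusted p = 0.746).

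Genes of cell death, oxidative stress and glia were not called. The 15 apoptosis regulators had a median log2 fold change of −0.06, with Bcl2 at 0.18 and Bax at −0.11 (edgeR adjusted p = 0.674 and 0.80). The 16 genes of Nrf2 and the antioxidant enzymes had a median of 0.01, with Nfe2l2, the gene of Nrf2 itself, at 0.05 and Gstm1, a glutathione transferase, at −0.34 (edgeR adjusted p = 0.95 and 0.419). Gfap, the astrocyte filament protein, was at 704, 513 and 505 CPM in control and 519, 603 and 604 CPM in MPTP mice, and the medians of astrocyte and reactive astrocyte genes were −0.03 and 0.06. At an unadjusted p under 0.05, 2 of 10 astrocyte and 1 of 24 reactive astrocyte genes were lower and none higher. The shares of all tested genes were 4.01% and 4.32%. Aif1, the microglial protein IBA1, was at 2.73, 2.41 and 2.51 and 3.36, 2.78 and 3.03 CPM (log2 fold change 0.26, edgeR adjusted p = 0.768). Genes of microglia had a median of 0.01, and those of activated microglia 0.26, with 3 of 16 higher at an unadjusted p under 0.05 and none lower. With a mean FPKM of at least 1 the median of activated microglia was 0.02, and without the third control mouse it was 0.14. The 3 higher genes were Ccl6, Clec7a and Cst7, and Cst7 had no count in the control mice and in 1 MPTP mouse. Olig2, Tubb3, Bdnf, Sirt1, Gabpa and Tomm20 had log2 fold changes of −0.14, −0.15, 0.01, 0.20, 0.13 and 0.08, none called (edgeR adjusted p = 0.708, 0.665, 0.994, 0.779, 0.788 and 0.634). A missed threshold does not show equal levels.

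Markers of other neurons that the dissection could hold were measured beside the dopaminergic genes. The summed level of the 23 dopaminergic genes was 1171 to 1265 CPM in control and 823 to 1005 CPM in MPTP mice, without overlap. The irisin-alone mice, which had received no MPTP, were at 1002 to 1059 CPM. They too lay below the control range, and they overlapped the upper end of the MPTP range. The MPTP and irisin mice were at 846 to 967 CPM. The summed level of the GABAergic genes was 1614 to 1677 and 1532 to 1647 CPM, and that of the serotonergic genes 128 to 230.2 and 87.5 to 268 CPM, so that these overlapped. Medians were −0.19 for serotonergic, −0.12 for noradrenergic, −0.21 for cholinergic, −0.04 for GABAergic and −0.17 for striatal genes, with no member of these lists past an unadjusted p of 0.05. The serotonergic median moved to −0.76 without the first MPTP mouse and to −0.01 without the second. Genes of cortical and hippocampal neurons had a median of 0.72, which turned to −0.27 without the second MPTP mouse, and genes of hypothalamus and pituitary had 0.43, which turned to −0.48 without the third. In each of these lists 1 member was higher at an unadjusted p under 0.05, against 4.32% of all tested genes. The 8 genes that convert or carry MPTP and its product had a median of −0.19, and Maob, which makes MPP+, had a log2 fold change of −0.20 (edgeR adjusted p = 0.801). The 17 genes tied to Parkinson's disease had no call, and the median of the list was −0.04.

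Of 14 clock genes, which follow the time of day, none was called. At an unadjusted p under 0.05, 4 were higher, against 4.32% of all tested genes. Per3 was at 36.3, 27.3 and 25.5 CPM in control and 39.9, 46.8 and 38.7 CPM in MPTP mice (log2 fold change 0.49, edgeR adjusted p = 0.389), and the irisin-alone mice were at 41.5, 42.1 and 38.7 CPM. At an unadjusted p under 0.05, 4 of 14 glucocorticoid response genes were lower and 2 higher, against 4.01% and 4.32% of all tested genes. The median was −0.17, and it was 0.04 without the second control mouse, so that its direction rested on that mouse. Mt1 and Mt2, metallothioneins that also answer to metals and oxidative stress, had log2 fold changes of −0.34 and −0.33 (edgeR adjusted p = 0.371 and 0.369). The time of sacrifice is not given in the labels, and its part in the levels of immediate early and clock genes was not tested. Genes of the interferon response had a median of 0.04, and those of oligodendrocytes 0.06, endothelium 0.01 and red blood cells −0.42. The choroid plexus list had a median of −0.65, and its summed level ranged from 271 to 1546 CPM in control and from 72.9 to 1573 CPM in MPTP mice, so that the mice of 1 group differed more than the groups.

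**Figure D5:**
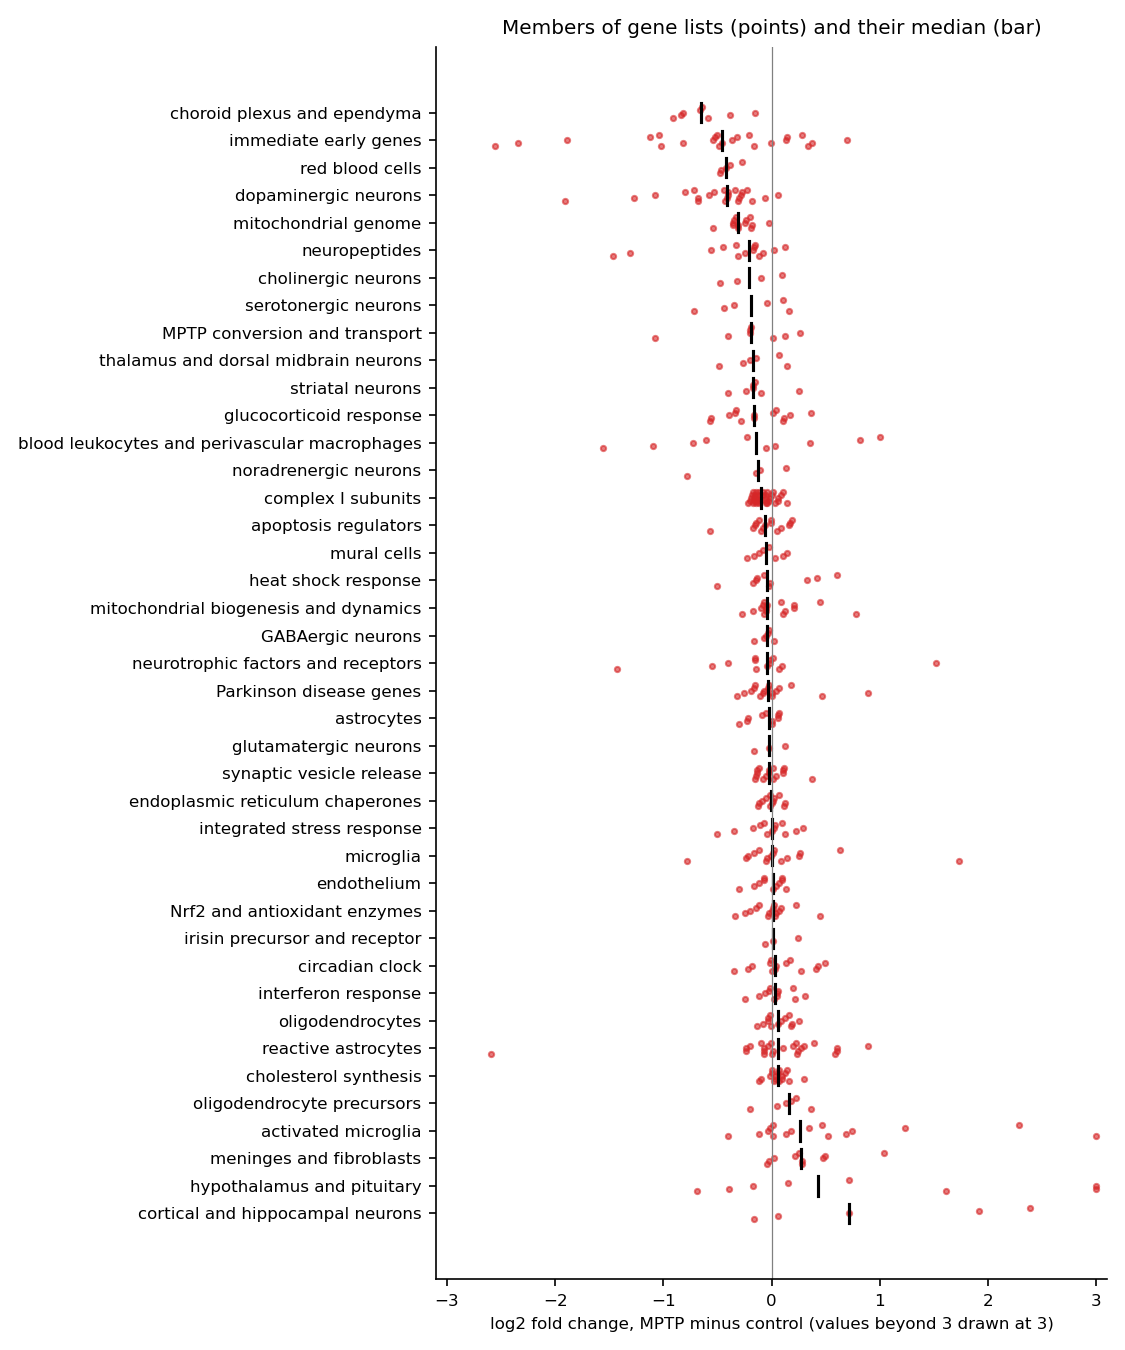
Log2 fold changes of the tested members (points) and their median (bar) for 41 gene lists, ordered by median, MPTP minus control mice, with values beyond 3 drawn at 3. The medians run from −0.65 (choroid plexus and ependyma) to 0.72 (cortical and hippocampal neurons). Those of immediate early genes, red blood cells, dopaminergic neurons and the mitochondrial genome are −0.46, −0.42, −0.41 and −0.31.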

How the data were processed

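RNA-seq of hand-dissected nigral tissue, labelled midbrain, was analysed for 12 mice of the delayed experiment and 9 of the pre-treatment experiment, 3 per group by the sample labels. The authors counted reads per gene with featureCounts and deposited raw counts and FPKM for every mouse. Submitters' processing notes name HISAT, StringTie, edgeR and mm9. The deposited coordinates matched GRCm38, as 51991 of 55144 genes shared with GENCODE M21 had the same chromosome, start and end. Counts were the unit of all tests, and the deposited FPKM values served 1 alternative filter. Whether counting used strand is not given in the sources used here, so overlapping and antisense genes are uncertain.

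Genes were filtered with filterByExpr (least count 10, least total count 15), scaled by TMM (factors 0.984 to 1.02) and tested two-sided with edgeR 4.0.16 in R 4.3.3 (quasi-likelihood, all 4 groups of the experiment in 1 fit, Benjamini-Hochberg over all tested genes, threshold 0.05). The pre-treatment mice had a fit of their own, and a joint fit of MPTP and control mice gave the difference between experiments. CPM were taken over the TMM-scaled total. DESeq2 1.42.0 was an alternative. An exact permutation test of 3 against 3 mice cannot go below p = 0.1, so none is given. On simulated counts of 21302 genes the fit recovered 44 of 102 genes changed by 1 on the log2 scale and 68 of 98 changed by 2, with 1 false call. Alternatives were median ratio scaling, no filter, a mean FPKM of at least 1, a fit of the compared groups alone, a replicate block, thinning to the smallest total count, an unadjusted p under 0.05 with a 2-fold change, and leaving out each mouse. Named were up to 15 called genes per direction with the largest change and no overlap, set members, and genes whose proteins the study measured. Other called genes, and Nnt, Sik1, Mfn2 and other list members outside that rule, were named after their values were seen. The members and gene lists were chosen with earlier results of these data known. Some genes of the lists are not reported here. p-values rest on the spread between mice of the same group, estimated over all groups in a fit and shared in part across genes.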

Additional observations from a re-analysis of the deposited data

Results flagged for a closer look

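The MPTP difference in vehicle-treated mice differed from that in irisin-treated mice (edgeR quasi-likelihood test of the interaction, Benjamini-Hochberg adjusted) in 8 of the 29 called genes. On the log2 scale the difference was −1.09 for Larp1 (adjusted p = 0.00198) and −1.72 for Wdfy1 (adjusted p = 3.12e-04). It was 2.82 for Crb1, 4.35 for Gm15446, 5.44 for Gm13301, 6.74 for Gm17081, 8.71 for Gm10599 and 10.1 for Gm10591 (adjusted p = 0.0106, 3.12e-04, 0.0262, 0.0237, 0.0032 and 0.00237). In all of these but Larp1, the control mice lay apart from the 9 other mice, and Gm10591 had no count in the control mice, so that its fitted value depends on the prior count.

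The MPTP difference of the delayed experiment differed from that of the pre-treatment experiment in 8 of the 28 called genes that could be tested. The difference was −3.94 for Apold1, −1.22 for Gabra2, 2.18 for Crb1, 4.16 for Gm15446, 4.58 for Gm13301, 6.18 for Gm17081, 8.69 for Gm12576 and 10.09 for Gm10591 (edgeR adjusted p = 0.0246, 0.0253, 0.0322, 7.63e-04, 0.0246, 0.0489, 0.0489 and 0.0246). Apold1 was the only one of these 8 in which the control mice of the delayed experiment did not lie apart from all 9 other mice. Gm12576 also had no count in those control mice.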

How the results depend on the processing

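The 29 called genes became 28 with median ratio scaling, 26 without a filter, 24 with a mean FPKM of at least 1 and 28 after thinning. With only both groups in the fit 10 genes were called (6 higher, 4 lower), 6 of them among the 29. DESeq2 called 179 (101 higher, 78 lower), all 29 among them, and 391 changed at least 2-fold with an unadjusted p under 0.05 (236 higher, 155 lower). Leaving out each mouse gave 16 to 35 genes, 12 to 21 higher and 4 to 14 lower. The fewest, 16, came without the second MPTP mouse and 18 without the first. Without the second control mouse 14 genes were lower, and without the third 5. MPTP mice against irisin-alone mice, chosen after seeing the data, gave 8 genes (2 higher, 6 lower), 4 of them among the 29. Larp1, Wdfy1, Gm15446 and Gm10599 were called in all 13 refitted alternatives. The causes of these changes were not tested.

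Same-numbered mice were different animals, and their deviations correlated at −0.023, 0.0022 and −0.070, so that the numbers gave no pairing. With the number as a block 17 genes were called (12 higher, 5 lower), all among the 29. The median log2 fold change ranged over the alternatives from −0.49 to −0.31 for the dopaminergic genes, −0.57 to −0.16 for the immediate early genes and −0.34 to −0.25 for the mitochondrial genome. DESeq2 called lower Th, Foxa1 and Chrna6 of the dopaminergic genes, Jun, Junb, Ier2, Btg2, Dusp1, Apold1 and Ccn1 of the immediate early genes, and mt-Nd4, mt-Nd6 and mt-Cytb.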

Other observations

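Of 10 genes of blood leukocytes and perivascular macrophages none was called, and S100a8 and S100a9 were lower at an unadjusted p under 0.05. Of all tested genes 4.01% were lower at that p. S100a9, a neutrophil protein, was at 1.26, 2.62 and 1.67 CPM in control mice, 0.589, 0.74 and 0.55 CPM in MPTP mice and 1.92, 1.17 and 1.42 CPM in irisin-alone mice (log2 fold change −1.56, standard error 0.32, edgeR adjusted p = 0.175). Synj1, a synaptic phosphatase mutated in early-onset parkinsonism, varied between mice of the same group, at 125, 109 and 132 CPM in control and 231, 308 and 141 CPM in MPTP mice (log2 fold change 0.89, standard error 0.35, edgeR adjusted p = 0.515). Pmch, the gene of melanin-concentrating hormone, was at 4.1, 1.61 and 13 CPM in control mice, 0.311, 1.05 and 29.4 CPM in MPTP mice and 70.8, 3.41 and 1.07 CPM in irisin-alone mice, so that single mice held the high values. S100a9, Synj1 and Pmch were chosen after their values were seen.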
